A study of Bos taurus with 4 samples.

Results

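The genes described are those of glutathione synthesis, recycling and use, named by symbol: GCLC, GCLM, GSS, GSR, GPX1, GPX3, GPX4, CHAC1, LOC281806 (listed with GSTP1 as a synonym) and GLRX. Of these 10 symbols, 9 had a probe set among the 9155 genes named on the array, 7 by 1 probe set and 2 by 2, while GLRX was not analysed here. Glutathione is the abundant thiol tripeptide with which cells reduce peroxides, repair oxidised protein thiols and conjugate reactive compounds. It is made by glutamate-cysteine ligase and glutathione synthetase, is oxidised as peroxidases and glutaredoxins use it, is returned to its reduced form by glutathione reductase with NADPH, and is taken apart by cyclotransferases and peptidases. T cells draw on it as they leave rest, since growth raises both oxidant production and the demand for cysteine and glutamate.

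The cells were bovine gamma delta T cells, lymphocytes abundant in the blood of young ruminants, sorted from peripheral blood to a purity above 97%. Cells of 2 calves, 301 and 303, were rested overnight and then held for 4 h with an apple polyphenol extract (APP, 42.2 µg/ml) or with vehicle, phosphate-buffered saline (PBS), which gave 4 arrays, 2 per treatment, each calf in both. The protocol gives the age as 1 to 6 months and the series' design text calls the animals neonatal, while the labels name no breed or sex. The comparison of APP with PBS asks which transcripts of these cells respond to the extract.

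Each value is a ratio of a probe set's signal to its own median over the 4 arrays, so a ratio of 1 is the middle of that probe set's range. Arrays can be compared on this scale, whereas levels cannot be set against each other, between genes or against background. For the same reason the labelled cell type could not be checked by level. Not all of the genes listed as its markers are particular to it among T cells, the CD3 chains for example. Of the 8 measured, 5 fell with APP and 1 rose (median log2 change -0.38). These counts, and those of the other marker lists, are read against the 29.7% of all genes that fell and 23.0% that rose. The markers TRDC, TRGC1 and GATA3, also listed, were not analysed here. Of the T cell receptor signalling chains CD3G (-0.47) and CD247 (-0.53) fell and CD3D and CD3E stood at -0.13 and -0.084, and CD163L1, WC1.3 and CD2 fell by 1.08, 0.86 and 0.29. CD5 rose by 0.62 on the deposited scale and was below 0 when scaled to the hybridization controls, which are spiked in. The mean log2 ratio of these 8 markers was 0.091 and 0.18 on the PBS arrays and -0.30 and -0.14 on the APP arrays of calves 301 and 303. Of 8 monocyte and dendritic cell markers 2 rose, CD68 by 2.31 and CD14 by 0.46 (CD14 below 0 on the scale of those controls), and 6 did not pass. The median change of that list was 0.14, and its mean log2 ratio was -0.24 and -0.20 with PBS and 0.14 and 0.24 with APP. Of 3 B cell markers 2 fell, of 4 NK cell markers 1 rose, of 4 alpha beta T cell markers 1 rose and 1 fell, and of 5 erythroid and platelet and 4 neutrophil markers none passed limma's test (0 and 1 at an unadjusted p under 0.05). The mean log2 ratio of the 4 alpha beta T cell markers differed between the animals. It was -0.69 with PBS and -0.47 with APP in calf 301, and 0.31 and 0.40 in calf 303. In these arrays fewer cells of a type and less RNA per cell cannot be told apart. The part of other cells in the results below, and in the differences between the calves, was not tested.

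Of the 9 genes, 4 rose with APP (CHAC1, GSR, GCLC and GPX4), 3 fell (LOC281806, GPX1 and GSS) and 2, GCLM and GPX3, did not pass limma's test, fitted with the calf as a block, at an adjusted p of 0.05. By the same rule, over all 9155 genes, 23.0% rose and 29.7% fell, and the counts of the 9 are read against those shares. Rises of GCLC, GSR and GPX4 depend on the scaling: set against the spiked hybridization controls, which were 0.76 (calf 301) and 0.94 (calf 303) higher on the APP arrays on the log2 scale, these genes changed by -0.16, -0.060 and -0.44. Those are means of the calves: in calf 301 GCLC and GSR kept a rise, since their 1.24 and 1.06 exceeded the 0.76. Their rises in calf 303, 0.15 and 0.52, were smaller than the 0.94, and those of GPX4 were smaller in each calf. That scaling moved the median of all genes by -0.85. Which scale is nearer to the transcripts in the cells was not tested. Since it subtracts 1 value per array, the distance of each gene from that median is the same on both scales: 0.68 for GCLC, 0.78 for GSR, 0.40 for GPX4 and 1.47 for CHAC1. The median size of change, without its sign, was 0.64 on the log2 scale for the 9 genes and 0.32 for all genes.

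**Figure D1:**
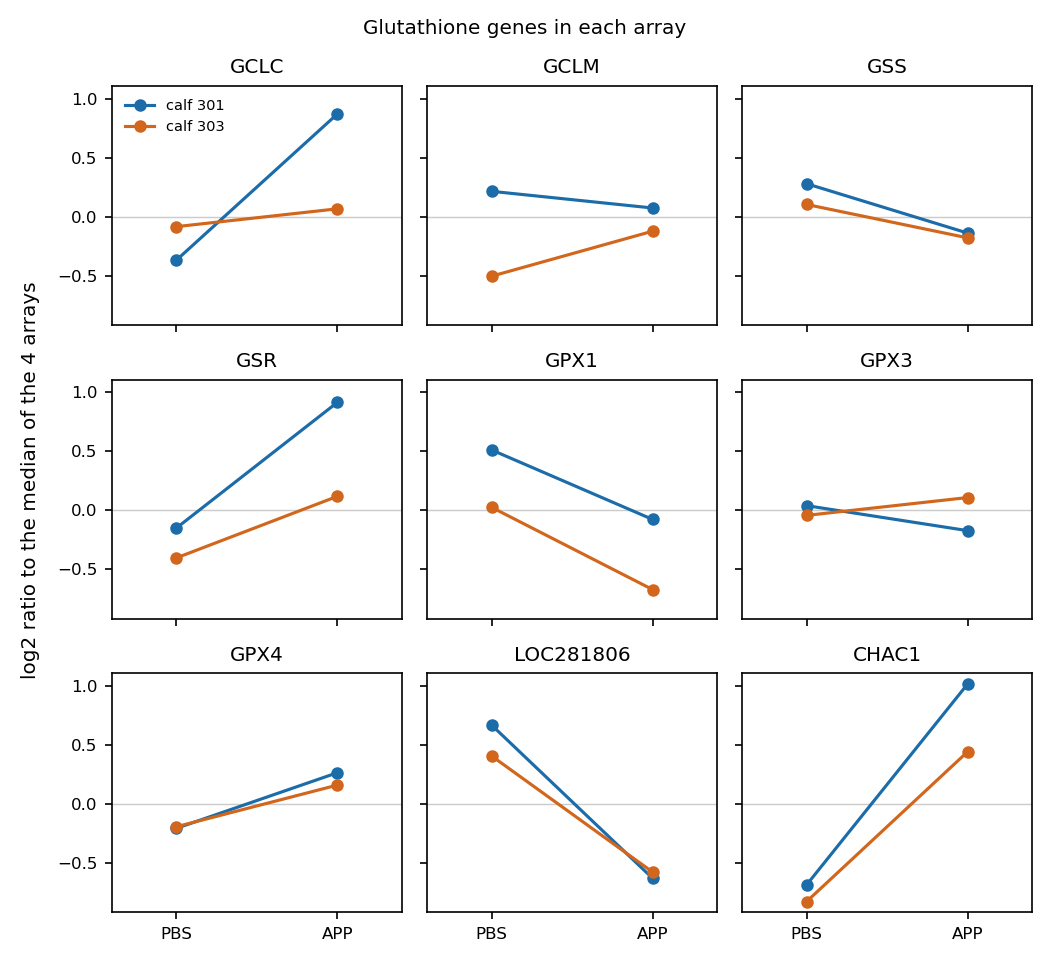
Log2 ratio to the median of the 4 arrays (vertical axis) in PBS and APP for each of the 9 genes, with 1 line per calf joining its 2 arrays and the probe sets of a gene averaged. Lines run up in both calves for CHAC1, GSR, GCLC and GPX4 on the deposited scale (GCLC, GSR and GPX4 do not when scaled to the hybridization controls), down for LOC281806, GPX1 and GSS, and in opposite directions for GCLM and GPX3.

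Of the genes of synthesis, GCLC (Entrez gene 512468) encodes the catalytic subunit of glutamate-cysteine ligase, the step that sets the rate of glutathione synthesis. Its ratio was 0.776 with PBS and 1.83 with APP in calf 301, and 0.944 with PBS and 1.05 with APP in calf 303. Both APP arrays lay above both PBS arrays, but nearly all of the rise came from calf 301. The log2 change was 1.24 in calf 301 and 0.15 in calf 303, a mean of 0.69 ± 0.77 (SD, n = 2 calves), or 1.62-fold, with a 95% interval of 0.15 to 1.23 from limma and an adjusted p of 0.0387 (limma, over genes). The same probe set had an adjusted p of 0.0648 in limma's test over all probe sets. With the block kept, its adjusted p was 0.0588 with arrays centred on their median, 0.1035 after quantile normalization and 0.0566 with the median of probe sets per gene, and with no replicate block it was 0.106. Of the limma fits that also left out 1 array, GCLC passed in the fit without the APP array of calf 303 (1.09), and without the PBS array of calf 301, the APP array of calf 301 or the PBS array of calf 303 it stood at 0.55, 0.29 and 0.83.

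GCLM (525659), the modifier subunit that raises the ligase's affinity for glutamate and loosens its feedback inhibition by glutathione, had ratios of 1.16 and 1.05 in calf 301 and 0.706 and 0.919 in calf 303, each with PBS first. The groups overlapped, and both arrays of calf 301 were above both of calf 303. Calf 301 gave a change of -0.14 and calf 303 of 0.38 (mean 0.12, 95% interval -0.21 to 0.45, adjusted p = 0.495, limma). The subunit genes had unlike patterns: in calf 301, where GCLC had its large change, GCLM was slightly lower with APP, and in calf 303 both were higher, GCLM by more.

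GSS (525059), glutathione synthetase, which adds glycine in the last step, had ratios of 1.21 and 1.08 on the PBS arrays and 0.909 and 0.884 on the APP arrays of calves 301 and 303. Both APP arrays were below both PBS arrays. GSS fell 1.27-fold, by 0.42 in calf 301 and by 0.28 in calf 303 (mean -0.35 ± 0.096, SD, n = 2 calves, adjusted p = 0.0215, limma), and it did not pass with no replicate block (adjusted p = 0.0547) or, with no block, without any of the 4 arrays (-0.44 to -0.26).

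For recycling, GSR (506406), glutathione reductase, which spends NADPH to regenerate the reduced form, had ratios of 0.902 with PBS and 1.88 with APP in calf 301, and of 0.757 and 1.09 in calf 303. The APP arrays lay above the PBS arrays, with the APP array of calf 301 far above the other 3. The log2 change was 1.06 in calf 301 and 0.52 in calf 303 (mean 0.79 ± 0.38, SD, n = 2 calves, 1.73-fold, 95% interval 0.46 to 1.12, adjusted p = 0.00312, limma). With no replicate block the adjusted p was 0.0737, and of the fits that also left out 1 array GSR passed without the APP array of calf 303 (1.19) and not without the PBS array of calf 301 (0.92), the APP array of calf 301 (0.39) or the PBS array of calf 303 (0.67).

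Among the peroxidases, GPX1 (281209), the cytosolic selenoprotein that reduces hydrogen peroxide, fell by 0.59 in calf 301 and by 0.70 in calf 303 (mean -0.64 ± 0.076, SD, n = 2 calves, 1.56-fold, adjusted p = 0.00149, limma). Its 2 probe sets disagreed in size. One had ratios of 1.65 and 1.16 on the PBS arrays and 0.829 and 0.568 on the APP arrays of calves 301 and 303, with no overlap between treatments, and fell by 1.01 (adjusted p = 0.000719, limma over probe sets). The other had 1.23 and 0.896 with PBS and 1.08 and 0.696 with APP; its treatments overlapped and its change of -0.28 did not pass (adjusted p = 0.0993). Both probe sets were lower in calf 303 than in calf 301 under either treatment. With no replicate block, which leaves this gap between the calves in the spread, the adjusted p of GPX1 was 0.103. Of the fits that also left out 1 array it passed without the APP array of calf 301 (-0.94), and it stood at -0.40 without the PBS array of calf 301, -0.88 without the PBS array of calf 303 and -0.35 without the APP array of calf 303.

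GPX4 (286809), which reduces lipid hydroperoxides within membranes and protects cells from ferroptosis, moved the other way. Its ratios were 0.867 and 0.875 on the PBS arrays and 1.20 and 1.12 on the APP arrays of calves 301 and 303. The calves were close to each other under both treatments and the treatments did not overlap. GPX4 rose by 0.47 in calf 301 and 0.35 in calf 303 (mean 0.41 ± 0.083, SD, n = 2 calves, 1.33-fold, adjusted p = 0.0109, limma, and 0.0258 with no replicate block), although it changed by -0.44 when scaled to the hybridization controls. Leaving out 1 array with no block, it passed without the APP array of calf 303 alone (0.36 to 0.46 over the 4 fits).

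GPX3 (281210), the secreted peroxidase of plasma, had ratios of 1.03 and 0.888 in calf 301 and 0.971 and 1.08 in calf 303, each with PBS first. All 4 lay close together and the treatments overlapped. The mean change was -0.030, with a 95% interval of -0.31 to 0.25 (adjusted p = 0.846, limma).

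On the side of use and breakdown, LOC281806 (281806) is a gene of the pi class of glutathione transferases, which join glutathione to electrophiles. In the RefSeq table of the assembly ARS-UCD2.0 it lies next to a gene named GSTP1, with 0 genes between them, and whether its probe set also takes up transcripts of that neighbour was not tested. Its ratios were 1.59 and 1.33 on the PBS arrays and 0.647 and 0.671 on the APP arrays of calves 301 and 303. The treatments were far apart and the APP arrays nearly equal. It fell by 1.295 in calf 301 and by 0.98 in calf 303 (mean -1.14 ± 0.22, SD, n = 2 calves, 2.202-fold, 95% interval -1.40 to -0.87, adjusted p = 0.00021, limma), and it passed in limma's fits with no replicate block and without each of the 4 arrays (adjusted p at most 0.0108). In the order of all 9155 changes it had the 548th largest fall.

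CHAC1 (505991), a cyclotransferase that splits the gamma-glutamyl bond of glutathione and a known target of the integrated stress response, had the largest change of the 9 on the deposited scale. On its first probe set the ratios were 0.61 and 0.49 with PBS and 2.199 and 1.38 with APP in calves 301 and 303. On the other they were 0.635 and 0.65 with PBS and 1.85 and 1.34 with APP. On both probe sets every APP array was above every PBS array by a wide gap, and the APP array of calf 301 was the highest. CHAC1 rose by 1.70 in calf 301 and 1.27 in calf 303 (mean 1.48 ± 0.30, SD, n = 2 calves, 2.79-fold, 95% interval 1.18 to 1.78, adjusted p = 0.000112, limma), with 1.67 and 1.295 for its probe sets. The first probe set, with the larger rise, is of a type with possible shared sequence, and without it the change of CHAC1 was 1.295. With both averaged, CHAC1 had the 187th largest rise of all genes. It also rose, by 0.63, when scaled to the hybridization controls, and passed without each of the 4 arrays (adjusted p at most 0.0182, limma). Of the 9, CHAC1 alone changed 2-fold or more in each calf, while of all 9155 genes 320 rose and 576 fell by that much in each.

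The calves moved the same way for 7 of the 9 genes, against 84.7% of all genes. The arrays of the treatments did not overlap for 7 of the 9 genes, 4 with APP above and 3 with APP below, against 36.6% of all genes above and 37.2% below. Without regard to sign, the change was smaller in calf 303 than in calf 301 for 7 of the 9, against 52.2% of all genes. The gap between the calves' responses was 1.09 for GCLC, larger than that of 99.8% of all genes, 0.54 for GSR (95.2%), 0.52 for GCLM (94.7%) and 0.43 for CHAC1 (91.0%), against a median of 0.15 over all genes. For GPX1, GPX4 and GSS the gap was 0.11, 0.12 and 0.14, below that median. With 1 response per calf these differences could not be tested.

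**Figure D2:**
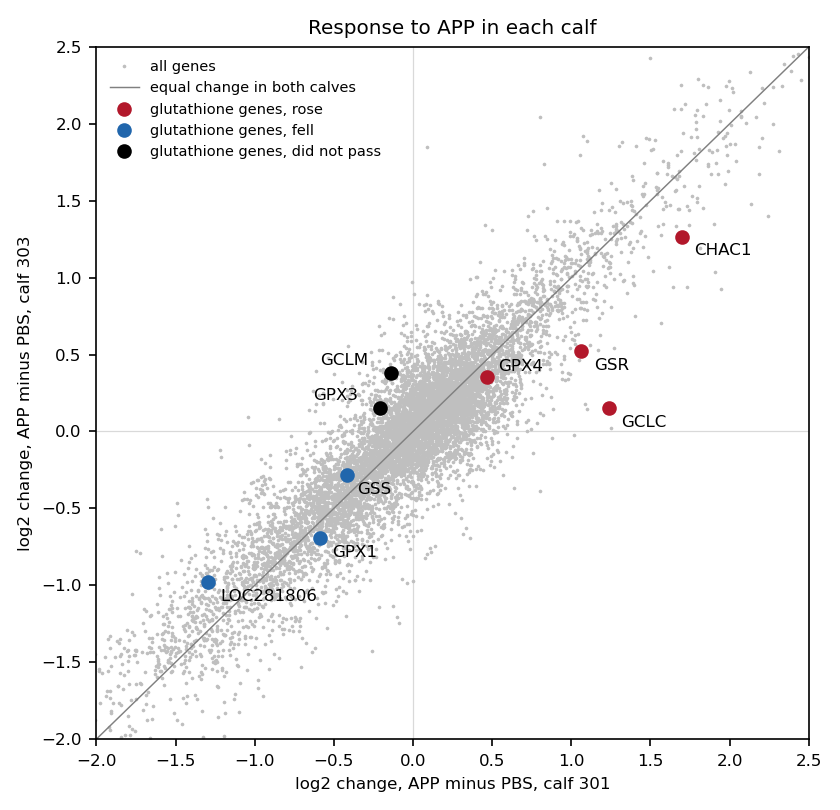
Log2 change from PBS to APP in calf 301 (horizontal) and calf 303 (vertical) for all 9155 genes (grey) and the 9 glutathione genes (coloured by limma's call on the deposited scale). On that scale the means of GCLC, GSR and GPX4 rose, but they did not when scaled to the hybridization controls. The axes run from -2 to 2.5, beyond which 157 genes lie. GCLC, at 1.24 and 0.15, and GSR, at 1.06 and 0.52, lie below the line of equal change, and GCLM, at -0.14 and 0.38, above it.

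The calves themselves were compared in the same fit. None of the 9 genes passed for the difference between calf 303 and calf 301 (limma, adjusted p from 0.0505 to 0.869). By the same rule 1.70% of all genes passed. GPX1 was nearest, at -0.54 on the log2 scale (calf 303 minus calf 301), followed by GSR at -0.52, GCLM at -0.46 and CHAC1 at -0.36. In all, 8 of the 9 were lower in calf 303, GPX3 being the exception, against 47.4% of all genes. This compares 1 animal with 1 animal. The mean of the alpha beta T cell markers was higher in calf 303 under both treatments, and the part of such cells here was not tested.

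The rest of the pathway was followed in 10 lists by role, which hold 53 measured genes beside the 9. Of these 53, 12 rose, 23 fell and 18 did not pass. These counts are read against the 23.0% of all genes that rose and 29.7% that fell. The 53 had a median change of -0.12 against 0.011 for all genes. Scaled to the hybridization controls, 5 of the 53 rose and 44 fell, where 286 of all 9155 genes rose and 8182 fell. Counts on that scale, here and for each list, are read against those, and that fit gave all genes the same variance. Uptake of precursors and the cysteine supply had the highest median of the 10 lists, 1.15, with 4 of 5 genes up and 1 down (2 up and 2 down when scaled to the hybridization controls). The glutamine transporter SLC1A5 rose 6.28-fold (2.54 in the cells of calf 301, 2.76 in those of calf 303), and SLC3A2, the heavy chain shared by the cystine and several amino acid exchangers, rose 5.54-fold (2.504 and 2.44). CBS, which begins the route from homocysteine to cysteine, rose 2.21-fold (0.99 and 1.298, but 0.29 and not past the threshold when scaled to the hybridization controls), and SLC1A4, a carrier of neutral amino acids, by 0.45 (-0.40 when scaled to the hybridization controls). With no block SLC1A4 did not pass (adjusted p = 0.0847, limma), nor without the PBS array of either calf (0.57 and 0.34) or the APP array of calf 301 (0.26). SLC7A11, the cystine-carrying partner of SLC3A2, was not analysed here.

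Of 9 genes of recycling and NADPH supply, 5 fell and 2 rose, GSR among the latter (8 fell when scaled to the hybridization controls), with a median of -0.46. The largest falls were those of the mitochondrial transhydrogenase NNT, 2.39-fold (-1.40 and -1.12 in calves 301 and 303), and of the NADP-dependent isocitrate dehydrogenases IDH1, 2.202-fold, and IDH2, 2.14-fold. The 3 probe sets of IDH1 ranged from -2.09 to -0.32. PGD, an NADPH-forming enzyme of the pentose phosphate pathway named here after its value was seen, was the other gene that rose (0.48 and 0.53, but below 0 in both calves on the scale of the hybridization controls).

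Of 10 measured glutathione transferases, 8 fell, LOC281806 among them, against 29.7% of all genes, 1 rose and 1 did not pass, with a median of -0.64. When scaled to the hybridization controls 9 fell, as did 8182 of all 9155 genes. GSTA4, which clears the lipid aldehyde hydroxynonenal, fell 4.18-fold (-2.36 and -1.77 in the calves, adjusted p = 6.09e-05, limma). MGST1, a membrane-bound transferase with peroxidase activity, fell 3.55-fold (-2.12 and -1.53, adjusted p = 9.27e-05, limma), and GSTK1, of mitochondria and peroxisomes, fell 1.89-fold (-0.98 and -0.85). The fall of LOC281806 came next in size after those of GSTA4 and MGST1.

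Among other enzymes that use glutathione, 3 of 4 fell and 1 did not pass (4 fell when scaled to the hybridization controls). ESD, the S-formylglutathione hydrolase, fell 3.28-fold (-1.85 and -1.57), the glyoxalase GLO1 1.72-fold (-0.83 and -0.73) and ADH5, which reduces S-nitrosoglutathione, 1.63-fold (-0.65 and -0.76), while ETHE1, a persulfide dioxygenase, changed by -0.21 (adjusted p = 0.11, limma). Of 3 glutaredoxins, GLRX5, which serves iron-sulfur cluster assembly in mitochondria, fell 2.34-fold (-1.25 and -1.21). GLRX2 changed by -0.26 and GLRX3 by 0.28 (adjusted p = 0.0915 and 0.0513, limma), the probe sets of GLRX3 standing at -0.0085 and 0.56. In the peroxidase list GPX7, an endoplasmic reticulum member, rose 1.73-fold (0.74 and 0.85, but -0.058 when scaled to the hybridization controls, and not past the threshold without the PBS array of calf 301, at 0.69), and GPX2 changed by 0.16 (adjusted p = 0.202, limma).

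Of 12 breakdown genes 2 rose, CHAC1 among them, 4 fell and 6 did not pass (1 and 11 when scaled to the hybridization controls). CHAC2, the close relative of CHAC1 with slow constitutive activity, fell 1.76-fold (-0.78 and -0.85 in calves 301 and 303). GGCT, the cyclotransferase that acts on gamma-glutamyl dipeptides, fell 2.08-fold (-1.50 and -0.61), and CNDP2, a dipeptidase that splits the remaining cysteinylglycine, fell 1.55-fold (-0.71 and -0.56). In fits with no block, CHAC2 did not pass without the PBS array of calf 303 (-0.66) and GGCT did not pass without the PBS array of calf 301 (-0.86). In export and mitochondrial import, ABCC1, which pumps glutathione and its conjugates out of the cell, fell 1.59-fold and the mitochondrial carrier SLC25A40 fell 1.54-fold (not past the threshold without the PBS array of calf 303, at -0.58). The change of ABCC3 was -0.081 in calf 301 but 0.83 in calf 303 and did not pass (adjusted p = 0.155, limma), though it did without the APP array of calf 301 (1.09).

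Among 8 transcription factors and sensors of the pathway, 4 rose and 4 did not pass (3 rose and 4 fell when scaled to the hybridization controls). Those that did not pass, named here after their values were seen, were ATF4 (0.069), DDIT3 (0.034), KEAP1 (0.25) and NFE2L1 (0.24). ATF3, a stress-induced repressor and activator, rose 13.1-fold (3.78 and 3.64), and the small MAF partners of NRF2, MAFF and MAFG, rose 6.06-fold (2.92 and 2.28) and 2.52-fold (1.73 and 0.94). NFE2L2, which encodes NRF2 itself, rose 1.51-fold (0.59 and 0.60), with 0.11 and 1.09 for its probe sets, but was at -0.25 on the scale of the hybridization controls and did not pass without the PBS array of calf 303 (0.51).

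**Figure D3:**
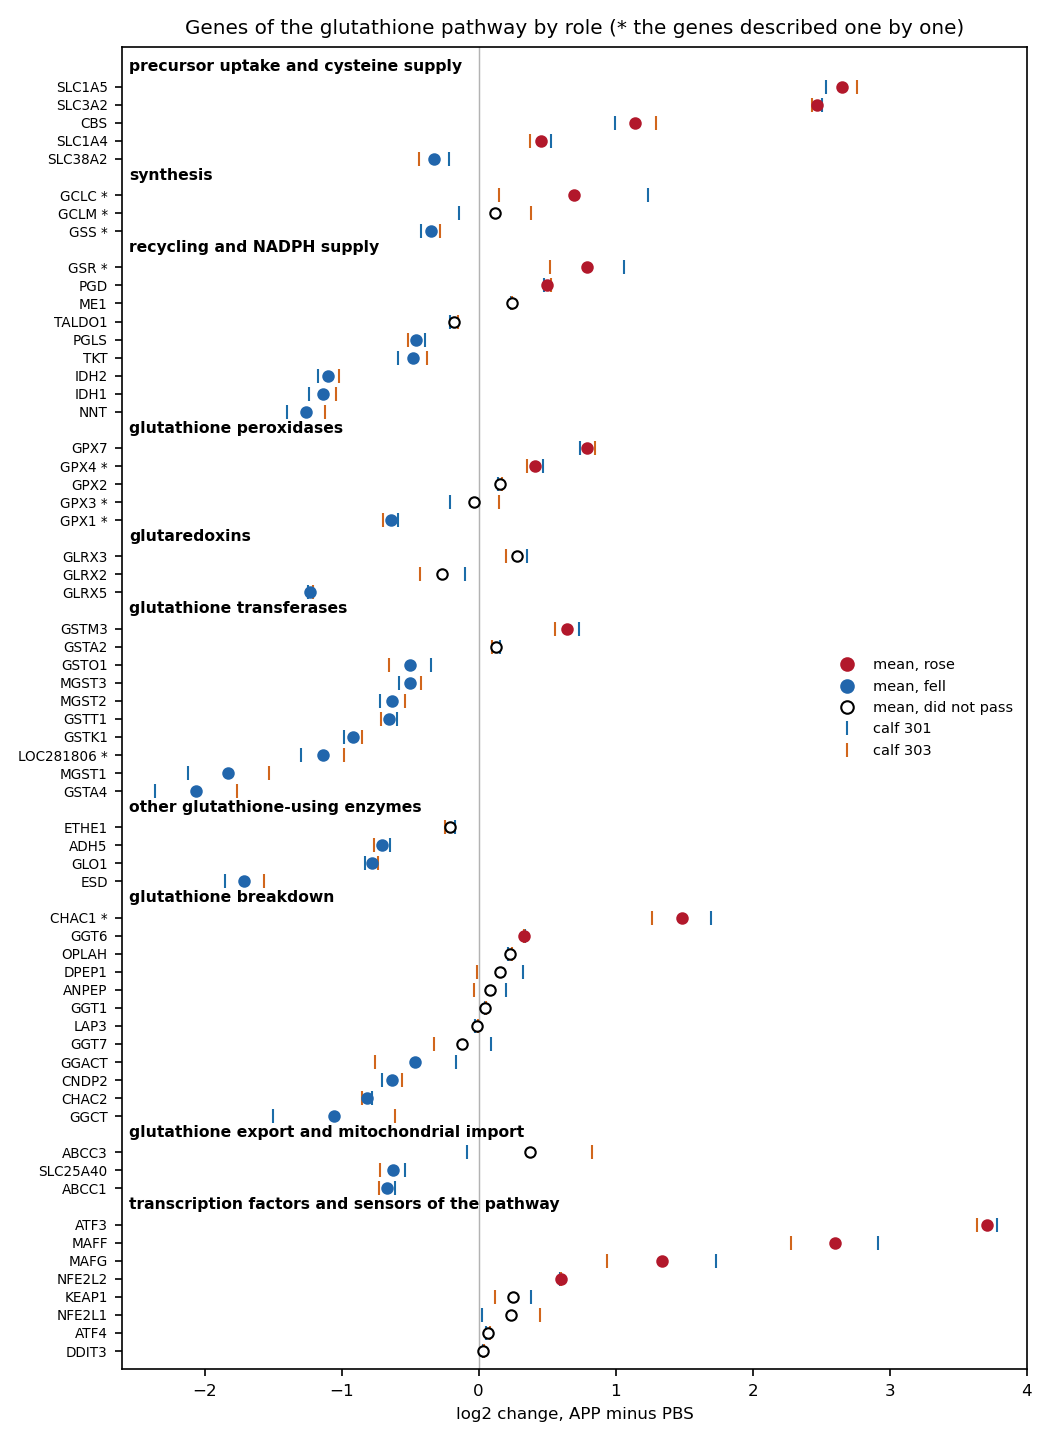
Log2 change from PBS to APP (horizontal) for the 62 measured genes of the 10 lists, by role, with the mean of the calves as a point (red, rose; blue, fell; open, did not pass, by limma on the deposited scale) and each calf as a tick. Transferases lie mostly left of 0 (8 of 10 fell) and precursor uptake mostly right (4 of 5 rose, 2 when scaled to the hybridization controls).

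Patterns most like those of the ends of the range were sought by Euclidean distance between log2 ratios over the 4 arrays, which describes these arrays alone. The nearest genes to CHAC1 were GNL1 (distance 0.22, change 1.55 ± 0.10, SD, n = 2 calves), NAB2 (0.23, change 1.31 ± 0.25) and ABHD3 (0.23, change 1.60 ± 0.19). The nearest to LOC281806 were RNF34 (0.10, change -1.10 ± 0.27), FYB1 (0.10, change -1.13 ± 0.14) and VPS26A (0.11, change -1.17 ± 0.11).

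**Figure D4:**
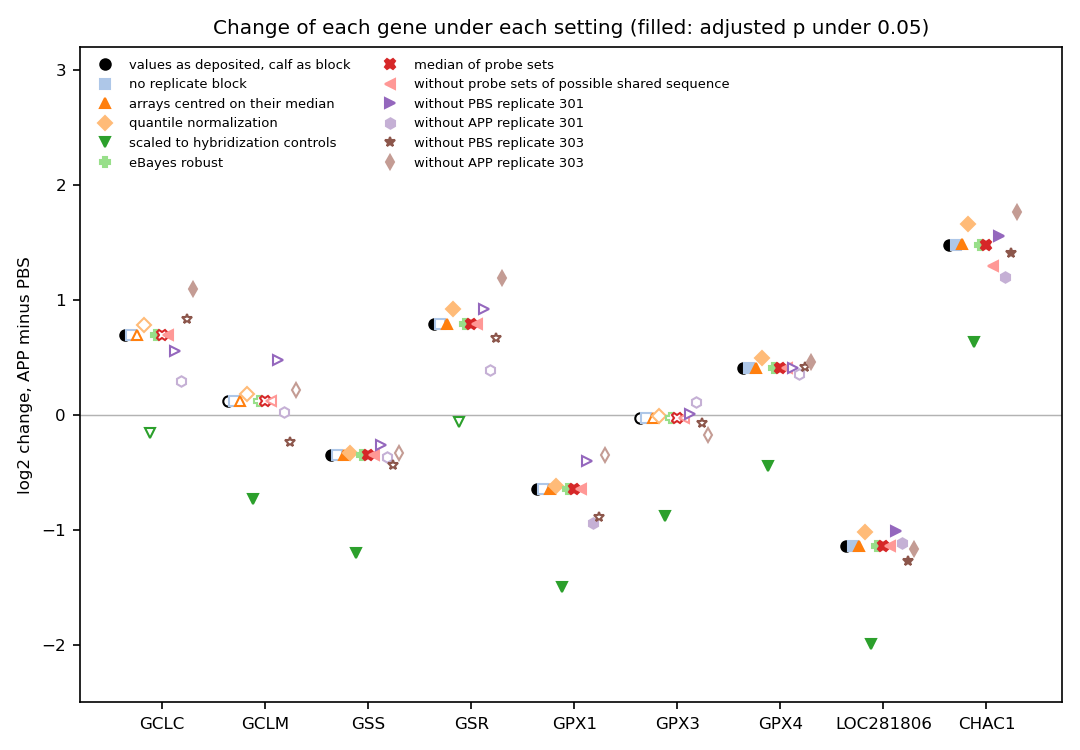
Log2 change from PBS to APP (vertical) for each of the 9 genes under each setting, filled where limma's adjusted p was under 0.05. CHAC1 stays above 0 and filled throughout (0.63 to 1.77) and LOC281806 below 0 and filled (-1.99 to -1.01), while GCLC, GSR, GPX4 and GCLM cross 0 when scaled to the hybridization controls, GCLM and GPX3 cross it when single arrays are left out, and GCLC is open under most settings.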

How the data were processed

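Sorted cells of 2 calves gave 4 Affymetrix arrays from 15 µg of total RNA each. RMA made the probe set values, per the submitters' processing notes, and its version and options are not stated. The deposited values are linear ratios, found from the values: after 1 factor per array, the middle values of each of 24128 probe sets averaged 1 to within 0.00068. Array medians of the ratio were 0.991 to 0.995. Levels cannot be recovered from it, and changes near background may be compressed. Arrays have no depth, and their number limits the precision.

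Ratios were log2 transformed. The 112 control probe sets were left out and 24016 tested, of which 13292 had 1 gene symbol in the platform table, 86 several and 10638 none. Symbols were updated by Entrez identifier through RefSeq (ARS-UCD2.0, names and neighbours only, 13263 matched), and the probe sets of a gene were averaged. limma 3.58.1 (lmFit, eBayes, two-sided, R 4.3.3) was fitted over all genes with the calf as a block, since each animal gave cells to both treatments, per the titles. A run on simulated data checked the code alone and does not show how well its p-values hold for these arrays. The fit has 1 residual degree of freedom, and the prior adds 5.86. In the fit scaled to the hybridization controls the prior was infinite, so all genes got the same variance. Calls on that scale therefore rest on another error model than those of the main fit. The difference between the calves correlated between treatments across genes (r = 0.509). P-values were adjusted by Benjamini-Hochberg, threshold 0.05. The members and lists were chosen with earlier results of these data known. Named genes are the members, up to 4 of each list with the largest absolute change, and the 3 genes nearest to CHAC1 and to LOC281806. Alternatives were no block, each array left out, centring, quantile normalization, scaling to 14 hybridization control probe sets (bioB, bioC, bioD), robust eBayes, the median of probe sets, leaving out probe sets of possible shared sequence, and a 2-fold change in both calves. Sequences of the genes were not used here.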

Additional observations from a re-analysis of the deposited data

Results flagged for a closer look

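Genes named above that moved in opposite directions in the calves were GCLM, GPX3 and ABCC3. The response of calf 303 minus that of calf 301 was 0.52 for GCLM (-0.14 in calf 301, 0.38 in calf 303), 0.36 for GPX3 (-0.21 and 0.15) and 0.91 for ABCC3 (-0.081 and 0.83). With 1 response per calf, none of these differences was tested.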

How the results depend on the processing

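Of the 9 genes, CHAC1 and LOC281806 kept direction and call in every limma fit run, and LOC281806 missed a 2-fold change in calf 303. With no replicate block 2 of the 9 rose and 1 fell, and over all features 1399 genes and 2473 probe sets rose and 2161 and 4273 fell. A change of 2-fold or more in each calf was a rise for 320 genes, 704 probe sets, 1 member and 4 other pathway genes and a fall for 576, 1545, 0 and 7. Scaled to the hybridization controls, 286 genes, 615 probe sets, 1 member and 5 other pathway genes rose and 8182, 21653, 6 and 44 fell. That fit gave all features the same variance, unlike the main fit. On that scale the changes that turned sign were GCLC -0.16, GCLM -0.73, GSR -0.060, GPX4 -0.44, SLC1A4 -0.40, GPX2 -0.69, GPX7 -0.058, GLRX3 -0.57, ABCC3 -0.48 and NFE2L2 -0.25; the subtracted shift by itself moves every gene down.

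Leaving out each array in turn, with no block, gave 745 to 1292 rising and 1305 to 2012 falling genes, 1155 to 2406 rising and 2455 to 4281 falling probe sets, 1 to 4 rising and 1 to 2 falling members, and 7 to 11 rising and 15 to 19 falling other pathway genes. Over these fits GCLM ranged from -0.24 to 0.48, GPX3 from -0.17 to 0.11, GPX2 from -0.041 to 0.36 and ABCC3 from -0.34 to 1.09, the last passing without the APP array of calf 301. GSS passed in none of these 4 fits, GPX4 only without the APP array of calf 303, and GPX1 only without the APP array of calf 301. For the calf difference, 116 genes were higher and 40 lower in calf 303; these were 66 and 16 with arrays centred and 67 and 16 with the median of probe sets. The causes were not tested.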
